A study of Arabidopsis thaliana with 8 samples.

Results

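A total of 30 probe sets had a lower signal in every yda-2 array than in any wild-type array, out of 4788 with a mean signal of at least 100 and 8247 on the array without controls. They were chosen by that separation alone: the highest of the 4 yda-2 signals had to lie below the lowest of the 4 WT signals. The probe set of AT2G34060 also met the criterion and is not counted among the 30. The groups were yda-2, carrying a mutant allele of YODA (YDA), and wild type (WT), both Arabidopsis thaliana grown in soil at 22 °C under constant light. Whole aerial parts of rosettes that had not yet bolted were sampled, with 4 biological replicates per genotype grown and harvested at different times, and each replicate was measured on 1 Affymetrix AtGenome1 array. Values are the authors' scaled signals on a linear scale. Same-numbered yda-2 and WT arrays are called a pair, and log2 differences are yda-2 minus WT of log2(signal + 16). A pair is assumed to share a harvest, which was not tested. Only 1 mutant allele was studied, and its background accession is not stated in the labels.

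The YDA protein is a kinase kinase kinase of the mitogen-activated type. It acts at the head of a kinase cascade that limits entry of epidermal cells into the stomatal lineage, and the same kinase is needed for the first asymmetric division of the zygote. Whole rosettes mix epidermis with a larger mass of mesophyll and vascular tissue, and in such bulk samples fewer cells of a type and less RNA per cell cannot be told apart.

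Several features of the arrays differed between replicates or between genotypes. WT replicate 2 stood apart, with a mean correlation of 0.819 with the other arrays, against 0.873 to 0.903 for the remaining 7. The maximum signal was 22519 to 33920 on the arrays of replicates 1 and 2 and 6226 to 10422 on those of replicates 3 and 4, in both genotypes. The 9 bacterial and phage control probe sets were lower in yda-2 in 4 of 4 pairs, by a mean log2 difference of -0.39. The ubiquitin 3′ over 5′ log2 ratio was above that of WT in 4 of 4 pairs, by a mean of 0.34. Neither difference was even across pairs, and both were smallest in pair 3. There the control mean was 9.42 in yda-2 and 9.49 in WT, and the ubiquitin ratio -0.356 and -0.363. In pair 1 these values were 10.67 and 11.24, and 0.65 and 0.06. The part of these in the members' values was not tested. Of the markers of leaf mesophyll, 1 of 8 was measured: RCA, which encodes Rubisco activase, had signals of 1549 to 19368 in yda-2 and 836.9 to 22444 in WT. None of the guard cell, trichome, vascular, root, flower and seed markers listed had a named probe set among those tested, so these cell types could not be followed. The YDA transcript itself was not analysed here, and the genotypes rest on the labels alone.

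Of the tested probe sets, 31, or 0.647%, were lower with no overlap between the groups, AT2G34060 included, and 83, or 1.73%, were higher with no overlap. This split depended on scaling: after quantile normalization 73 were higher and 58 lower, and after median centring 67 were higher and 74 lower. How many probe sets would separate without any genotype effect was not worked out, so these counts are a description only. In limma without the pairing, 0 of the tested probe sets passed an adjusted p of 0.05 on the lower side (0.0%) and 2 on the higher side (0.0418%). At an unadjusted p under 0.05, 36 were lower (0.752%). With the replicate pairs as a block the lower count was again 0, with 124 lower at that unadjusted p. No member therefore passed, and because the members were picked on this very contrast their differences are given as a description with no test. None is called changed.

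The members' log2 differences ran from -1.71 to -0.22. Their median was -0.4996, against 0.02 over all tested probe sets, a difference that the selection fixes in sign. In 4 members the log2 difference was -1 or lower, and in 15 it was -0.5 or lower. The separation was narrow for many of them. The log2 gap between the lowest WT and the highest yda-2 signal was under 0.05 in 10 members and under 0.1 in 15. It was over 0.3 in 4, namely 18929_s_at, AT1G12080, 17549_at and 14984_s_at. Of the 30, 10 have exactly 1 gene in the annotation, 3 have several and 17 have none. The 10 with a name had a median log2 difference of -0.49 and the other 20 a median of -0.56.

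**Figure D1:**
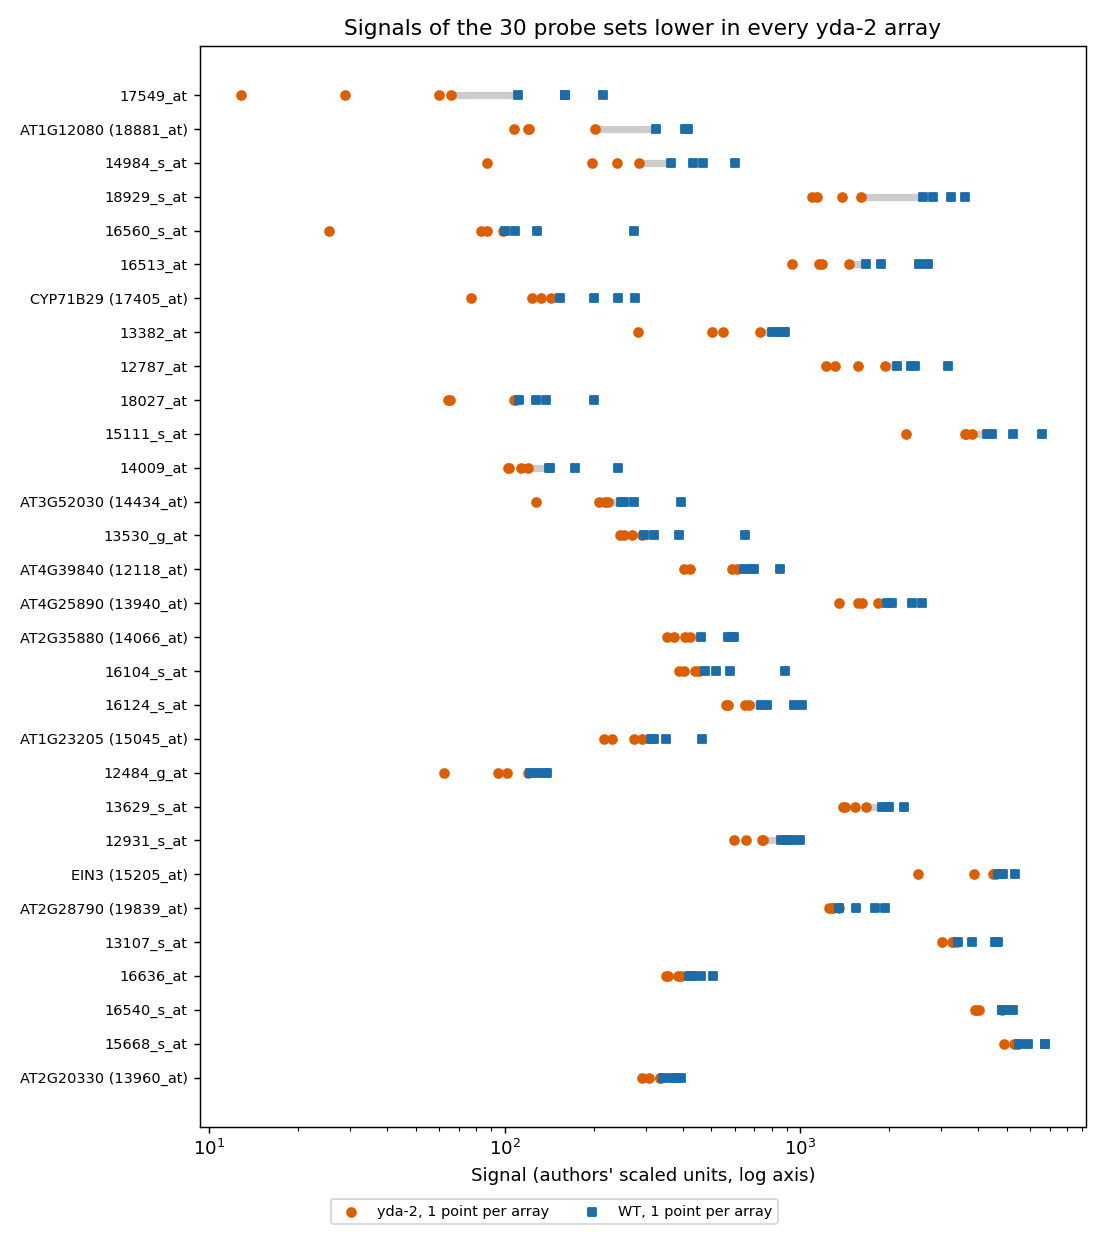
Signals on a log axis (authors' scaled units) for the 30 probe sets, 1 row each, ordered by log2 difference, with orange circles for the 4 yda-2 arrays and blue squares for the 4 WT arrays. Grey bars span the gap between the genotypes, which is over 0.3 on the log2 scale in 4 rows, among them 18929_s_at and AT1G12080.

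AT1G12080, whose product is described as related to vacuolar calcium-binding proteins, was the named gene with the widest gap on the log2 scale. Its signals were 120.2, 202.3, 120.7 and 108.0 in yda-2 replicates 1 to 4, against 325.9, 417.1, 408.8 and 413.0 in WT replicates 1 to 4. All 4 yda-2 arrays lay clear of WT, and 3 of them lay close together while replicate 2 was higher. The means were 137.8 ± 43.4 in yda-2 and 391.2 ± 43.7 in WT (SD, n = 4 each), so the mutant mean was 35.2% of the WT mean. The log2 difference was -1.44 (SE 0.27, from the fit across all tested probe sets), and by pair it was -1.33, -0.99, -1.64 and -1.79. AT1G12080 had its smallest difference in pair 2, as did 2 of the 30 members in all. It also stayed apart after quantile normalization and after median centring.

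CYP71B29 encodes a cytochrome P450, a haem enzyme family that oxidizes many specialized metabolites. It had signals of 76.8, 124.1, 132.7 and 144.0 in yda-2 and 201.0, 277.2, 154.6 and 242.6 in WT. The yda-2 arrays of replicates 2 to 4 lay close under WT replicate 3, and yda-2 replicate 1 lay well below. The means were 119.4 ± 29.6 in yda-2 and 218.8 ± 53.0 in WT (SD, n = 4 each), a log2 difference of -0.80 (SE 0.31). By pair it was -1.23, -1.07, -0.20 and -0.69, so pair 3 contributed little. The family could be followed in 3 genes of the 225 with such a symbol. CYP71B28, of the same subfamily, had a log2 difference of 0.08 (781.0 ± 102.3 in yda-2 and 745.2 ± 163.1 in WT), and CYP71B6 of 0.43 (984.3 ± 353.9 in yda-2 and 716.3 ± 186.1 in WT). Of these 3 genes, 1 lay below 0, 2 lay above, and 0 passed in limma. Of all 4788 tested probe sets, 0 passed as lower (0.0%) and 2 as higher (0.0418%). The difference between CYP71B29 and these relatives was not tested.

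EIN3, the transcription factor that switches on ethylene responses and is known to be controlled largely through the stability of its protein, was the brightest named member. Signals in yda-2 were 2509 in replicate 1, 4598 in replicate 2, 4478 in replicate 3 and 3873 in replicate 4, against 4838, 5310, 4655 and 4790 in WT. The WT values were tight and yda-2 replicate 1 lay far below the other mutant arrays. Replicates 2 and 3 of yda-2 nearly reached WT, with a log2 gap of 0.02, and replicate 4 lay between these and replicate 1. Means were 3864 ± 958 in yda-2 and 4898 ± 285 in WT (SD, n = 4 each), a log2 difference of -0.38 (SE 0.27). The pairs gave -0.94, -0.21, -0.06 and -0.31. Without yda-2 replicate 1 the difference was -0.18, and after quantile normalization it was -0.25. The genotypes overlapped for EIN3 after quantile normalization and after median centring.

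AT1G23205 encodes a protein of the invertase and pectin methylesterase inhibitor superfamily, whose pectin methylesterase inhibitors affect wall stiffness. Its signals were 292.5, 230.9, 216.3 and 275.1 in yda-2 and 351.2, 463.8, 314.0 and 320.7 in WT, with the highest WT value in replicate 2. The log2 difference was -0.48 (SE 0.24). AT2G28790 belongs to the thaumatin-like superfamily, which includes pathogenesis-related proteins. It was nearly constant in yda-2, at 1290, 1277, 1251 and 1353, and more scattered in WT, at 1357, 1790, 1940 and 1551. Its highest yda-2 signal, 1353.2, lay just under its lowest WT signal, 1357.4, and the log2 difference was -0.34 (SE 0.22). Both genes lost their separation on rescaling, AT1G23205 after either normalization and AT2G28790 after quantile normalization.

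AT2G35880 encodes a protein of the TPX2 family, whose members bind microtubules. It had signals of 407.5, 422.4, 354.0 and 373.7 in yda-2, against 461.2 to 598.1 in WT, where replicate 2 was the lowest. Both genotypes were tight, with means of 389.4 ± 31.2 in yda-2 and 554.9 ± 63.4 in WT (SD, n = 4 each) and a log2 difference of -0.49 (SE 0.21). AT4G25890 encodes an acidic protein of the P3 type in the stalk of the large ribosomal subunit. It had 1613, 1348, 1565 and 1836 in yda-2 and 1969, 2392, 2580 and 2038 in WT, a log2 difference of -0.49 (SE 0.22). Its pair differences were -0.29, -0.82, -0.72 and -0.15. Both genes remained apart after both rescalings.

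The remaining named members included a pair of genes for WD40 repeat proteins, a fold that serves as a scaffold for other proteins. AT3G52030, whose product also carries an F-box, had signals of 223.5, 127.9, 208.1 and 219.0 in yda-2 and 247.9, 394.0, 253.6 and 274.9 in WT. Replicate 2 was the lowest mutant array and the highest WT array, and its pair difference of -1.51 stood against -0.14 to -0.31 in the other pairs. The log2 difference over all arrays was -0.56 (SE 0.28), and it was -0.41 without WT replicate 2 and -0.38 without yda-2 replicate 2. AT2G20330 had the smallest difference of all members, -0.22 (SE 0.22), with signals of 291.3 to 335.4 in yda-2 and 344.3 to 396.6 in WT and an SD of about 22 in both (21.7 in yda-2 and 21.9 in WT). AT4G39840 had signals of 425.6, 589.4, 405.2 and 612.4 in yda-2 and 700.2, 680.4, 857.9 and 645.8 in WT. Its log2 difference was -0.51 (SE 0.23), carried mainly by pairs 1 and 3, at -0.70 and -1.05, against -0.20 and -0.07 in pairs 2 and 4. AT4G39840 overlapped after both rescalings, whereas AT3G52030 and AT2G20330 stayed apart.

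**Figure D2:**
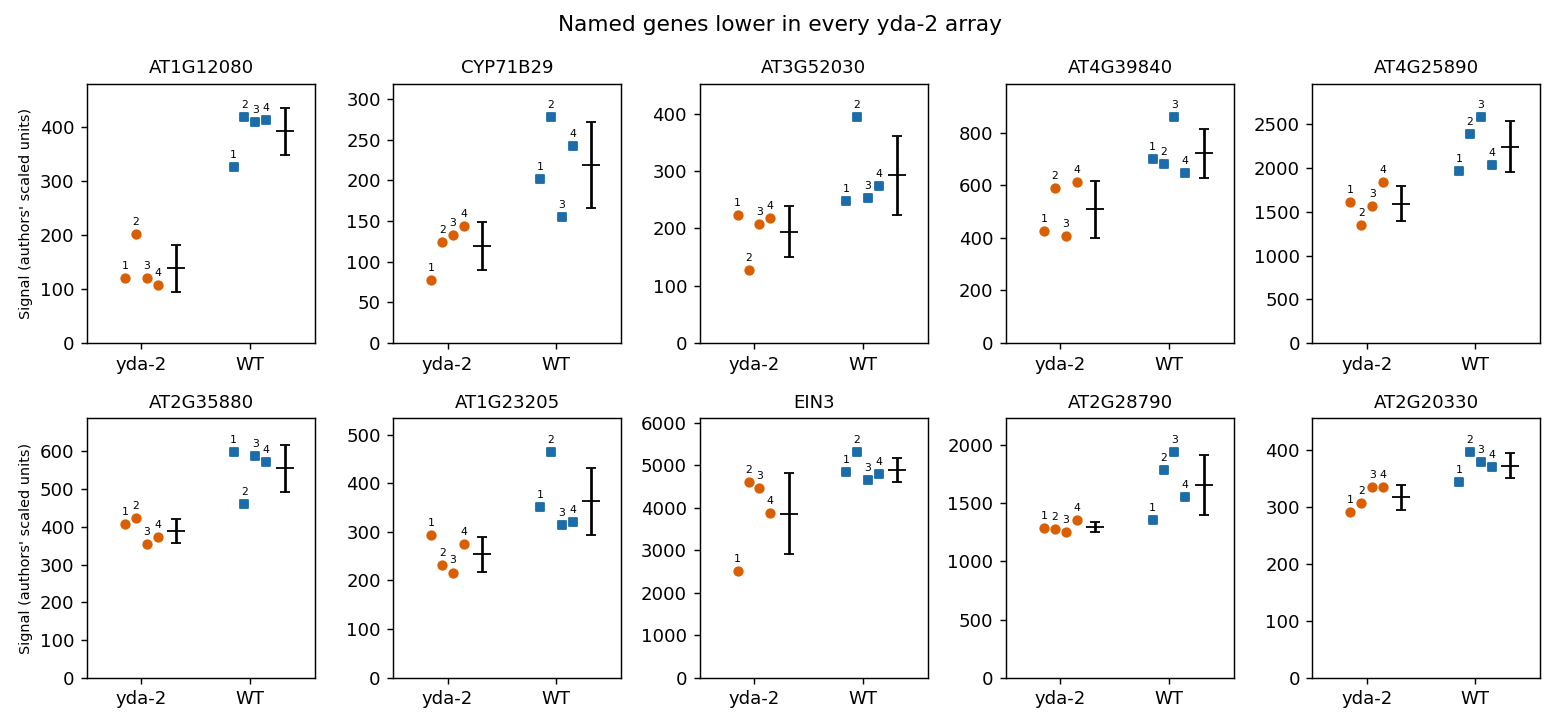
Signal (authors' scaled units, linear axis from 0) of the 10 named genes, with 1 numbered point per replicate and the mean ± SD as a bar beside each genotype, yda-2 left and WT right. AT1G12080 has the widest gap on the log2 scale, with means of 137.8 in yda-2 and 391.2 in WT, while the upper yda-2 points of EIN3 and AT2G28790 nearly touch WT.

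Among members without a single gene name, 18929_s_at combined a bright signal with a wide gap. It had 1096, 1382, 1138 and 1609 in yda-2, against 3619, 2811, 3231 and 2609 in WT. Its log2 difference was -1.23 (SE 0.24), and its pair means differed by only 0.09 on the log2 scale, the least of the 30. Probe set 17549_at had the lowest log2 difference, -1.71 (SE 0.44), from signals of 28.9, 12.8, 59.9 and 65.9 in yda-2 and 160.4, 111.1, 160.0 and 214.8 in WT. The mutant signals were dim and have no detection calls. Their mean was 41.9, against 161.6 in WT, so 17549_at reached the minimum mean of 100 only through its WT arrays. The same held for 16560_s_at (means of 73.7 in yda-2 and 152.8 in WT), 18027_at (86.65 and 144.4) and 12484_g_at (94.88 and 131.9). With a pseudocount of 64 the log2 difference of 17549_at was -1.10 and with 1 it was -2.14, and its genotypes overlapped after quantile normalization. Probe set 14984_s_at, annotated to several genes, had 239.3, 87.4, 284.3 and 198.2 in yda-2 and 470.6, 600.2, 433.4 and 365.6 in WT, a log2 difference of -1.23 (SE 0.34).

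Next among the unnamed members by size of difference came 16560_s_at at -0.91 (SE 0.45), 16513_at at -0.87 (SE 0.25) and 13382_at at -0.78 (SE 0.28). The first rested on pair 2. Probe set 16560_s_at had 83.1, 25.5, 87.3 and 98.9 in yda-2 and 108.1, 273.6, 100.4 and 129.2 in WT, so 3 pairs differed by -0.17 to -0.34 and pair 2 by -2.80. Without yda-2 replicate 2 its difference was -0.57. Probe set 16513_at was steadier, with 940.1 to 1459 in yda-2 and 1664 to 2716 in WT and pair differences of -0.65 to -1.11. Probe set 13382_at had 803.8 to 889.1 in WT and a wider 282.2 to 732.5 in yda-2, lowest in replicate 3.

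The other 14 members without a single gene name had log2 differences of -0.74 to -0.24 and mean signals of 113.4 to 5733. From the lowest difference to the highest they were 12787_at, 18027_at, 15111_s_at, 14009_at, 13530_g_at, 16104_s_at, 16124_s_at, 12484_g_at, 13629_s_at, 12931_s_at, 13107_s_at, 16636_at, 16540_s_at and 15668_s_at. Single arrays weighed on several of them, and the values that follow are examples. For 15111_s_at the difference was -0.63, and -0.46 without yda-2 replicate 2. For 13530_g_at the difference was -0.55 and without WT replicate 2 it was -0.32. For 16104_s_at these values were -0.49 and -0.30. For 12484_g_at the difference was -0.44, and -0.28 without yda-2 replicate 3. Quantile normalization brought 15668_s_at and 16540_s_at closest to 0, at -0.06 and -0.11, against -0.24 and -0.26 as deposited.

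Members and non-members lay close together at the threshold. Just inside lay 16540_s_at, with 4801.5 as its highest yda-2 signal and 4808.1 as its lowest WT signal, then AT2G28790 and 13107_s_at, with 3402.3 and 3417.5. Just outside lay 19422_at, with 934.2 as its highest yda-2 signal and 931.6 as its lowest WT signal, AT4G17350, with 121.9 and 121.4, and 19644_at, with 172.2 and 170.6. A further 28 probe sets were separated in the same way but had a mean signal under 100, the brightest of them 12609_at at 95.3. The dimmest member was 17549_at, at 101.7.

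The difference was not equal across the pairs. The median log2 difference of the members was -0.51, -0.89, -0.39 and -0.32 in pairs 1 to 4, against 0.06, -0.05, 0.01 and 0.06 over all tested probe sets. Pair 2, which holds the WT replicate 2 array, gave the largest difference in 17 of the 30 members, pair 3 in 6, pair 1 in 5 and pair 4 in 2. In WT, replicate 2 held the highest signal of 18 members, while in yda-2 the lowest signal was that of replicate 3 in 10 members, replicate 1 in 9, replicate 2 in 8 and replicate 4 in 3. Without WT replicate 2 the members' median was -0.45. Within replicates 1 and 2 the median was -0.63, and within replicates 3 and 4 it was -0.38.

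**Figure D3:**
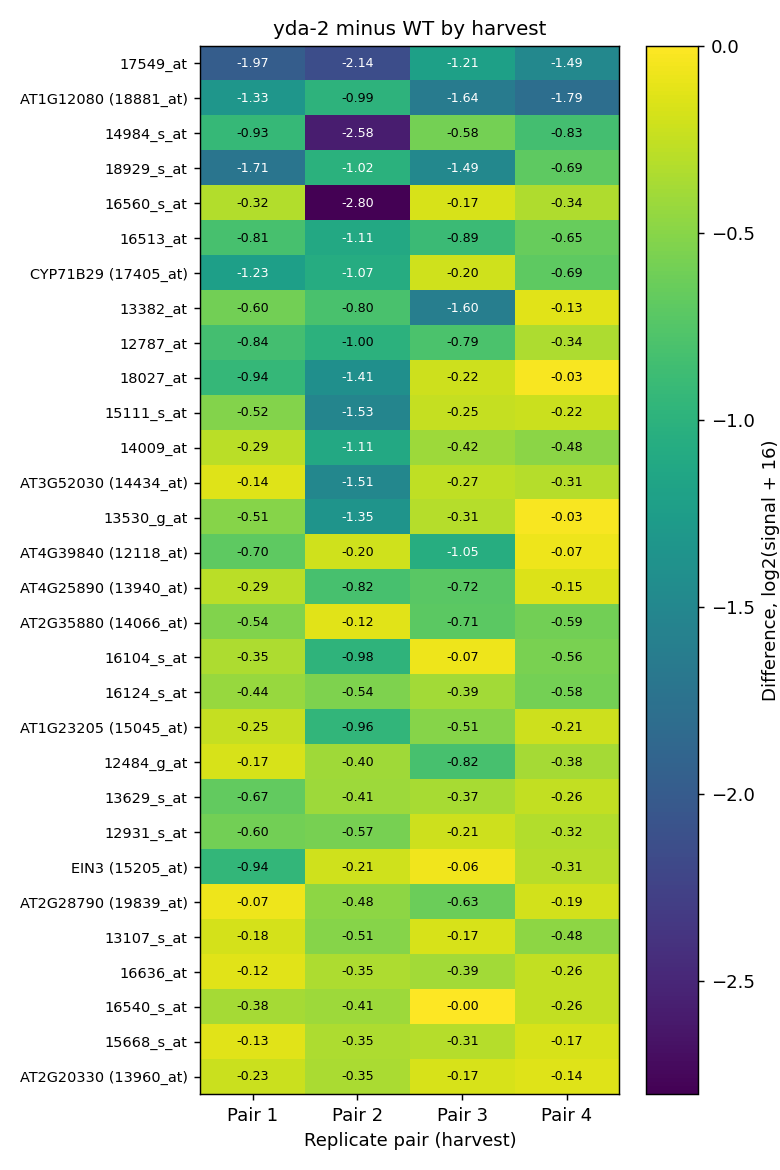
Log2 difference, yda-2 minus WT of log2(signal + 16), for the 30 probe sets (rows) in each replicate pair (columns), with darker cells for lower values. Pair 2 holds the lowest value in 17 rows, and 17549_at, AT1G12080 and 18929_s_at are at -0.69 or lower in every pair.

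The members varied less from pair to pair than most tested probe sets. The mean of a pair varied over the 4 pairs by a median log2 range of 0.27 for the members, against 0.82 for all tested probe sets, and 29 of the 30 lay under the latter value, 17549_at being the exception at 1.18. After quantile normalization these medians were 0.47 for the members and 0.76 for all tested, and after median centring 0.40 and 0.78. Their median coefficient of variation was 16.04% within yda-2 and 15.1% within WT, against 29.2% and 33.2% over all tested probe sets. The separation rule favours steady probe sets, so this describes what the rule admits. A further 235 tested probe sets outside the 30 members had log2 differences as low as the members' median or lower. Their median harvest range was 1.04, and 92 of these were lower in all 4 pairs. AT2G34060 was not taken out of the probe sets searched for this count. Over the array 340 tested probe sets, or 7.10%, were lower in all 4 pairs, and the members make up 8.82% of these.

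**Figure D4:**
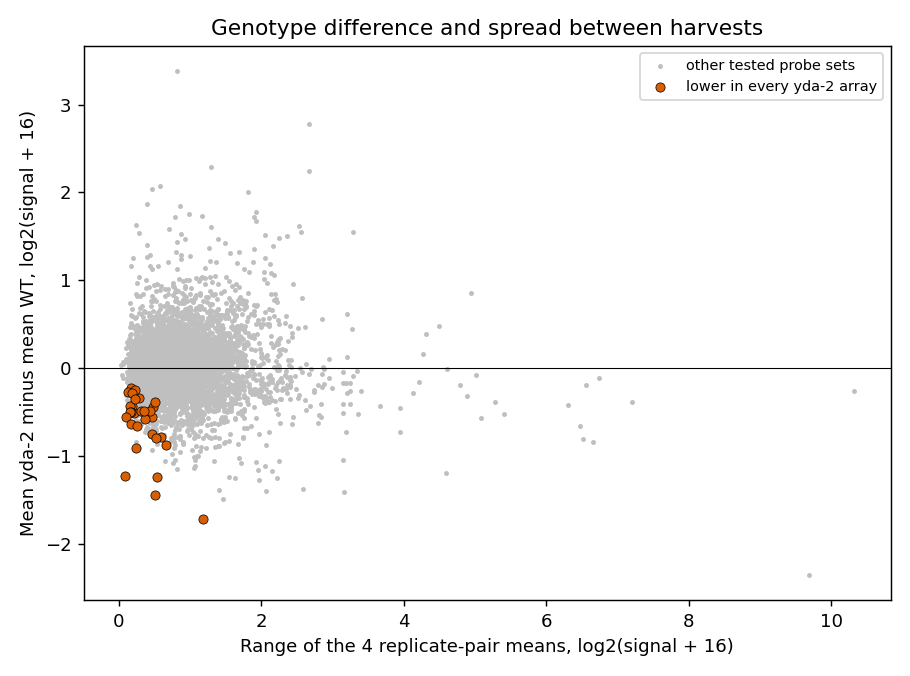
Mean log2 difference, yda-2 minus WT (vertical axis), against the range of the 4 replicate-pair means (horizontal axis), both of log2(signal + 16), for all 4788 tested probe sets, with members in orange. Members sit at the left edge, with a median range of 0.27 against 0.82 over all.

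Apart from CYP71B29, no gene of the lists described here is a member. Of 38 listed light-harvesting and photosystem genes only 6 were measured. These 6 had a median log2 difference of -0.28, 6 below 0 and 0 above. Their SEs ran from 0.40 to 1.73. LHCB4.1, with the largest SE, had 203.0 to 27755 in yda-2 and 186.4 to 24004 in WT. It was higher in yda-2 in pairs 1 and 4 and lower in pairs 2 and 3. The share of all tested probe sets below 0 is not given here. Of 19 listed cold and dehydration genes only 4 were measured. These 4 had a median of -0.63, 3 below 0 and 1 above, with SEs of 0.28 to 0.59. In limma 0 genes of either list passed, against 0 lower (0.0%) and 2 higher (0.0418%) of the 4788 tested probe sets. LHCB4.3, an antenna protein gene at -1.08, and COR15B, a cold-regulated chloroplast protein gene at -1.24, had larger differences than most members but overlapped between genotypes: LHCB4.3 had 367.6 to 1178 in yda-2 and 698.5 to 2451 in WT, and COR15B had 291.2 to 917.0 in yda-2 and 576.0 to 2579 in WT. PRL, the MCM7 helicase subunit and the 1 measured replication gene, was at -0.62, with 466.4 to 906.5 in yda-2 and 870.9 to 1191 in WT. The 3 methionine sulfoxide reductase genes had a median of 0.03, MSRB6 at -0.90, MSRB9 at 0.03 and MSRB5 at 0.25. Of the 4 expansin and XTH cell wall genes, EXPA8 was at -0.79, EXPA4 at -0.25, EXPA15 at -0.08 and XTH32 at 0.09. All 4 and the reductase genes overlapped between genotypes, and 0 of them passed in limma.

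Signal level and probe design were not part of the rule beyond the minimum signal. The members' mean signals ran from 101.7 to 5733, with a median of 566.6 against 419.1 over all tested probe sets, and 17 of the 30 were brighter than the latter. Probe sets whose suffix marks probes shared between transcripts made up 13 of the 30, or 43.3%, against 24.9% of all tested. For these 13 the signal may come from more than 1 transcript, which was not tested. No named member had a further probe set with its name, so no second measurement of these genes was at hand.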

How the data were processed

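The members and the gene lists were chosen with earlier results of these data known. The deposited signal values were scaled by the authors to an average of 500 per array, per the labels. The summary algorithm is not given in the sources used here, and there are no detection calls. The 50 controls were left out, and a mean signal of 100 or more was required for testing. Genotypes were fitted with limma 3.58.1 in R 4.3.3 on log2(signal + 16), two-sided, allowing for an intensity trend, with p-values adjusted by Benjamini-Hochberg at 0.05. The fit was also run on simulated data with independent noise on each array. That simulation held no shared harvest effect and its outcome is not given here, so it does not vouch for these data. SEs come from the limma fit of the 8 arrays, and members get no p. The labels give replicates as separate harvests, and arrays were paired by number on the assumption that same-numbered arrays shared a harvest. Deviations of paired arrays from their group means correlated at 0.596, 0.296, 0.324 and 0.577 in pairs 1 to 4. Without such values for arrays of different number, these cannot decide whether the pairing is right. Names come from the platform annotation, where 3794 probe sets without controls have 1 gene, and 3784 of these matched TAIR10.1. The text names every member with 1 gene, the 6 others with the largest difference, those nearest the threshold and measured list genes. LHCB4.3 and COR15B, the other members and AT2G34060 were named after their values were seen. Planned protein and promoter comparisons were not run, as no sequences were used here. Alternatives were pseudocounts of 1 and 64, quantile normalization, median centring, no filter, a minimum mean of 200, no trend, the replicate block and leaving out each array. Figures were drawn with matplotlib 3.10.9.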

Additional observations from a re-analysis of the deposited data

Results flagged for a closer look

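A single array lay far from the other 3 of its genotype in 6 of the 60 groups of 4 signals, where chance flags about 1 in 20 groups. AT1G12080 was high in yda-2 replicate 2 (202.3) and low in WT replicate 1 (325.9). AT3G52030 was low in yda-2 replicate 2 (127.9), as was 15111_s_at (2273). Probe set 16540_s_at was high in yda-2 replicate 3 (4801.5), and 16560_s_at was high in WT replicate 2 (273.6).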

How the results depend on the processing

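All 360 recomputed log2 differences of single members stayed below 0, and 357 moved by less than 1 SD of the pair differences. The selection fixed the sign under another pseudocount or without 1 array. Only quantile normalization and median centring could have reversed it. The members' median stayed between -0.58 and -0.45 under every alternative run. Membership depended on the settings. AT2G34060 not counted, the criterion was met by 58 probe sets with no filter, 57 after quantile normalization and 73 after median centring. Leaving out 1 array loosens the criterion. It was then met by 50 (without yda-2 replicate 3) to 114 (without WT replicate 1), with 29 or 30 of the 30 members still meeting it. Of the 30, 17 stayed apart after quantile normalization, 21 after median centring and 16 after both. The members' median harvest range was 0.47 after quantile normalization, against 0.76 over all tested probe sets. With the replicate block limma called 0 lower and 9 higher probe sets, and 2 higher without it. The higher count was 0 with a pseudocount of 1, a filter of 200 or median centring, 1 with no filter or quantile normalization, and 0 to 2 on leaving out 1 array. The lower count was 0 throughout, with 26 to 75 lower at an unadjusted p under 0.05 on leaving out 1 array. The block changed no other call. The causes of these shifts were not tested. Precision is limited by the few arrays, and there are no detection calls for dim signals.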
